A study of Mus musculus with 6 samples.

Results

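Mitochondria translate a small set of respiratory chain proteins on their own ribosome, and every protein of that ribosome is encoded in the nucleus, made in the cytosol and imported. Import runs through the TOM complex of the outer membrane, then through the TIM23 channel for proteins with a cleavable presequence or the TIM22 channel for carrier proteins, with small Tim chaperones guarding the space between the membranes. The genes described here are the 101 of 14882 rows in the deposited table whose names start with Mrpl or Mrps and a digit (77 genes of the mitochondrial ribosome) or with Timm or Tomm (24 genes of protein import). The names set the membership, but the set was chosen by a measured value, the level of Timm23, which read higher in every Adamts17-/- library, so the genotype values below are a description of these libraries and not a test of an independent idea. The names do not match function everywhere. Timmdc1 is an assembly factor of respiratory complex I, and Mrps36 is also known as a subunit of the 2-oxoglutarate dehydrogenase complex. Mrps18a and Mrps30 sit in the large subunit of the ribosome, and Tomm6os is a non-coding transcript on the strand opposite Tomm6. Subunit classes below follow the names, so Mrps18a, Mrps30 and Mrps36 are counted with the small subunit.

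RNA came from hypertrophic cartilage at the upper end of the tibia, where growth plate chondrocytes enlarge before bone replaces them; this zone was cut out by laser microdissection and its RNA was amplified linearly before sequencing. The comparison was of 3 Adamts17-/- libraries, lacking a secreted metalloprotease, with 3 wild type (WT) libraries, all on C57BL/6 and aged 7 days, and the mice are called littermates. The labels do not say that each library came from a separate mouse, so differences are read against the spread between libraries only. Nor do they say which part of Adamts17 was removed.

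The libraries were shallow and uneven. They held 595989 to 2688295 read equivalents in Adamts17-/- and 722119 to 1662637 in WT, a read equivalent being the value times transcript length divided by the step that 1 read makes in that library. Adamts17 itself was at 0.0085, 0.087 and 0.026 RPKM (reads per kilobase of transcript, scaled to library size) in Adamts17-/- replicates 1, 2 and 3, and at 0.246, 0.0407 and 0.397 RPKM in WT replicates 1, 2 and 3, too low in both groups to check the labels. None of the 8 hypertrophic chondrocyte markers was listed at 0 in any library, and Col10a1, the collagen of hypertrophic cartilage, was at 1437 RPKM or more in each. Of the cartilage markers all 11 had a negative log2 fold change (median -1.27, 0 passing the test), and their mean log2(RPKM + 1) was 4.77, 4.57 and 5.76 in Adamts17-/- and 5.79, 7.64 and 6.18 in WT, without overlap. All 7 tested osteoclast and macrophage markers were also negative (median -1.05, 0 passing), with sums of 225, 596 and 3725 RPKM in Adamts17-/- and 4538, 315 and 4520 RPKM in WT, which overlap. Libraries also stood apart by other tissues. Summed over markers, neutrophil genes were at 2530, 66850 and 85.5 RPKM in Adamts17-/- and 2192, 200.9 and 15.96 RPKM in WT. Erythroid genes were at 20090, 264400 and 3712 RPKM in Adamts17-/- and 3229, 69750 and 5487 RPKM in WT. Hbb-b2 and Hbb-bt had the same value in every library, and each was counted in these erythroid sums. Proliferation genes were at 307, 1910 and 339 RPKM in Adamts17-/- and 141, 53.2 and 190 RPKM in WT. Skeletal muscle genes reached 17410 RPKM in WT replicate 1, against 362 to 561 RPKM in Adamts17-/- and 258 to 1566 RPKM in the other WT libraries.

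Promoters of mitochondrial protein genes often carry sites for ETS factors such as GABP, for NRF1 and for YY1, regulators with a part in mitochondrial biogenesis. RefSeq windows from 250 bases before to 50 after the start (GRCm38.p6) were found for 89 of the 101 genes and 11708 genes of the table. Shares below are of these genes and not of windows. A gene with more than 1 window was counted once, as a match if any of its windows matched. The ETS core CCGGAAG, searched on both strands, was found for 33 of the 89 members (37.1%), against 17% of all genes with a window. GCATGCGC, the core of the NRF1 site, was found for 10.1% of these members and 5.39% of all genes with a window. It was searched on both strands, which overlap each other in a full site. AAGATGGC, from the YY1 site, was found for 14.6% and 4.65%. At least 1 of these 3 motifs was found for 37 of 68 ribosome genes (54.4%) and 10 of 21 import genes (47.6%). Over all genes with a window the share was 24.6%. GC content was alike, with a median of 58.0% over members and 59.7% over all genes with a window. TATAAA was found for 7.87% of these members and 10.1% of all such genes. By class, CCGGAAG was found for 36.8% of ribosome genes and 38.1% of import genes with a window. AAGATGGC was found for 12 of 68 ribosome genes and 1 of 21 import genes. A window with at least 2 copies of CCGGAAG was found for 4 of 68 ribosome genes (5.88%) and 6 of 21 import genes (28.6%). Over all genes with a window the share was 3.19%, and differences between the classes were not tested. A match is a run of letters and not a shown binding site. The 250 bases before the start are printed for Timm23, Mrpl52 and Mrps22. Mrpl52 is the ribosomal gene with the highest mean level, and Mrps22 had groups that did not overlap in RPKM. The other ribosome members without overlap, Mrpl30, Mrpl32 and Mrps24, had no CCGGAAG in their windows. Each printed stretch holds 1 ETS core, shown in capitals, which reads CTTCCGG, the reverse complement, in Timm23 and Mrpl52. The whole windows of Timm23 and Mrpl52, with the 50 bases after the start, hold 2 copies each. The printed stretches lie at chr14:32201892-32202141 (minus strand), chr14:54426659-54426908 (plus strand) and chr9:98601680-98601929 (minus strand).
Timm23: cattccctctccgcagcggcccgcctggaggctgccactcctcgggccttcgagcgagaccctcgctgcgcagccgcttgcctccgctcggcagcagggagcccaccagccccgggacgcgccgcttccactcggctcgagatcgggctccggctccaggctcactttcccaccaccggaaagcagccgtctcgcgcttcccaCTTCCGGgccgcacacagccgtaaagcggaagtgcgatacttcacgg
Mrpl52: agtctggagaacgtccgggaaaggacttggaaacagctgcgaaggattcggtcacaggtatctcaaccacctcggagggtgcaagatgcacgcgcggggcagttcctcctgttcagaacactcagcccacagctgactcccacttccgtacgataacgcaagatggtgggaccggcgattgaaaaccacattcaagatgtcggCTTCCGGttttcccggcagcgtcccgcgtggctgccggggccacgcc
Mrps22: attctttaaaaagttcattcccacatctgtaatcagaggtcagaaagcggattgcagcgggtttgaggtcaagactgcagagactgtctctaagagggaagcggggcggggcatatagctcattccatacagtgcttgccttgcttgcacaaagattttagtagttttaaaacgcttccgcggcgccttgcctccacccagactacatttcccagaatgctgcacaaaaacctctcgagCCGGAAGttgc
The capitals end 40 bases before the start in Timm23 and in Mrpl52 and 4 bases before it in Mrps22. For Mrps22 the 30 bases after this RefSeq start were not found in a GENCODE transcript of the gene, as they were for Timm23 and Mrpl52, so its start is less sure.

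Timm23, the subunit that gives the presequence channel of the inner membrane its name, was the member that had drawn attention to these genes. It lies on chromosome 14, from 32180166 to 32201891 on the minus strand in the table (Entrez gene 53600), the same bounds as in RefSeq on GRCm38.p6. It was at 167, 171 and 301 RPKM in Adamts17-/- replicates 1, 2 and 3, and at 66.3, 0 and 0 RPKM in WT replicates 1, 2 and 3. All 3 Adamts17-/- libraries were above all 3 WT libraries, and the distance came mostly from the pair of WT libraries that list the gene at 0. In read equivalents the values were 199, 416 and 223 in Adamts17-/- and 220, 0 and 0 in WT, all whole within 0.01. On log2(RPKM + 1), the scale of every fold change here, the log2 fold change of Adamts17-/- over WT was 5.66, and it lay between 4.65 and 7.68 with any 1 library left out. Library weights, which count discordant libraries less, brought it to 2.71. Besides Timm23, 1700074P13Rik had at least 50 RPKM in all 3 Adamts17-/- libraries and 0 in exactly 2 WT libraries, and it is named here after its values were seen. The mirror image, with the genotypes exchanged, was found for 0 genes. The pattern was drawn from the values of Timm23 itself, so these counts describe the libraries and test nothing.

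**Figure D1:**
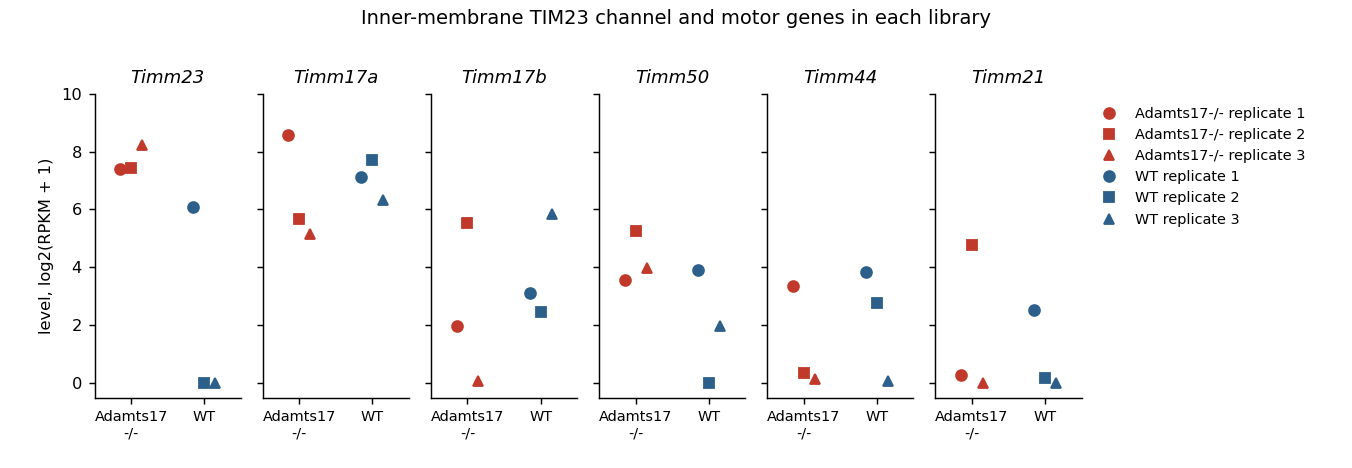
Level of the 6 genes of the TIM23 channel and its motor, as log2(RPKM + 1), in the 3 Adamts17-/- libraries (red) and the 3 WT libraries (blue); each point is 1 library. Timm23 is above 7 in all Adamts17-/- libraries and at 0 in WT replicates 2 and 3, while its partners have overlapping groups.

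The partners of Timm23 did not share its pattern. Timm17a, which forms the membrane core of the channel with Timm23, was at 381, 50.4 and 34.2 RPKM in Adamts17-/- and 140, 207 and 80.2 RPKM in WT (log2 fold change -0.59 ± 1.20, SE, n = 3 per group). It was detected in every library, the pair with Timm23 at 0 included, and the groups overlapped; without Adamts17-/- replicate 3 its log2 fold change was 0.07. Timm17b, its X-linked paralog, was at 2.97, 45.3 and 0.0478 RPKM in Adamts17-/- and 7.58, 4.57 and 55.9 RPKM in WT (-1.27 ± 1.66), so that each group had 1 library far above its others. Without Adamts17-/- replicate 2 its log2 fold change was -2.78, and without Adamts17-/- replicate 3 it was -0.04. Timm50, the receptor that hands presequences to the channel, was at 10.7, 37.6 and 14.6 RPKM in Adamts17-/- and 14.0, 0 and 2.97 RPKM in WT (2.30 ± 1.59). Its order was like that of Timm23, with the low values in WT replicates 2 and 3, but WT replicate 1 lay among the Adamts17-/- libraries. Timm44, which tethers the import motor to the channel, was at 9.29, 0.294 and 0.11 RPKM in Adamts17-/- and 13.4, 5.75 and 0.0655 RPKM in WT (-0.94 ± 1.39, or 0.33 without WT replicate 1 and Adamts17-/- replicate 2). Timm21, which links the channel to the TOM complex, was at 0.222, 26.6 and 0 RPKM in Adamts17-/- and 4.79, 0.138 and 0 RPKM in WT, and was too low to be tested. Both were above 1 RPKM in only some libraries of each group.

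Among the genes named Tomm the groups overlapped in every case. Tomm22, the central receptor of the TOM complex, was at 113, 229 and 109 RPKM in Adamts17-/- and 56.0, 13.7 and 156 RPKM in WT (1.48 ± 1.22). Tomm20, the presequence receptor, was at 35.6, 24.2 and 2.22 RPKM in Adamts17-/- and 30.9, 13.8 and 67.2 RPKM in WT (-1.15 ± 1.43). In both genes the highest WT library lay above at least 1 Adamts17-/- library. Tomm5, a small subunit of the complex, was at 49.7, 196 and 0 RPKM in Adamts17-/- and 23.0, 22.3 and 8.51 RPKM in WT (0.30 ± 1.61). Tomm7, another small subunit, was at 24.6, 164 and 0 RPKM in Adamts17-/- and 36.9, 2.30 and 5.27 RPKM in WT (0.81 ± 1.69). Both peaked in Adamts17-/- replicate 2 and were listed at 0 in Adamts17-/- replicate 3, so the mean of that group describes none of its libraries. The sign for Tomm5 turned negative with quantile normalization, with upper-quartile scaling, with a pseudocount of 0.1, and without Adamts17-/- replicate 1 (-0.31), Adamts17-/- replicate 2 (-1.29), WT replicate 3 (-0.13) or Adamts17-/- replicate 2 and WT replicate 1 together (-1.06). That for Tomm7 turned negative without Adamts17-/- replicate 2 (-0.87), with library weights (-0.65) and with a pseudocount of 0.1 (-0.08). The other Tomm genes were lower in mean log2(RPKM + 1). Tomm6 (2.41 ± 1.61), Tomm70a (-0.51 ± 1.61), Tomm34 (-1.79 ± 1.56) and Tomm40l (0.31 ± 1.31) stayed under 75 RPKM in every library, as did Tomm20. Tomm40, the pore itself, was at 0.584, 9.16 and 0 RPKM in Adamts17-/- and 1.47, 0 and 0 RPKM in WT, and with Tomm6os was too low to be tested. Where Tomm6 and Tomm6os overlap, their reads cannot be told apart unless strand was used in counting, which the sources used here do not state.

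The small Tim chaperones and the TIM22 channel had overlapping groups throughout. Timm13, a chaperone that works with Timm8 proteins, was at 74.7, 96.7 and 193 RPKM in Adamts17-/- and 40.9, 25.98 and 94.4 RPKM in WT (1.24 ± 1.20), with WT replicate 3 within the range of the Adamts17-/- libraries. Its partner Timm8b was at 94.2, 222 and 0 RPKM in Adamts17-/- and 41.2, 58.0 and 70.9 RPKM in WT (-1.03 ± 1.54), and the negative sign came from the single 0: without Adamts17-/- replicate 3 the log2 fold change was 1.37. Timm8a1, the mouse counterpart of the gene lost in human deafness-dystonia syndrome, was at 5.91, 91.5 and 26.3 RPKM in Adamts17-/- and 45.3, 0.269 and 9.18 RPKM in WT (1.62 ± 1.57, or -0.82 with library weights). Timm22, the carrier channel, was at 2.03, 9.17 and 2.43 RPKM in Adamts17-/- and 15.01, 8.45 and 25.6 RPKM in WT (-1.75 ± 1.55). Adamts17-/- replicates 1 and 3 were below every WT library, while Adamts17-/- replicate 2 lay above WT replicate 2. Timm9 and Timm10, which form the main chaperone ring together, were each listed at 0 in 3 libraries. Timm9 was at 28.8, 32.4 and 0 RPKM in Adamts17-/- and 19.7, 0 and 0 RPKM in WT, and Timm10 at 0, 20.04 and 0 RPKM in Adamts17-/- and 5.78, 0 and 33.3 RPKM in WT. Both were listed at 0 in Adamts17-/- replicate 3 and WT replicate 2, but Timm9 alone in WT replicate 3 and Timm10 alone in Adamts17-/- replicate 1. The log2 fold change was 1.56 ± 1.601 for Timm10b and -0.76 ± 1.58 for Timmdc1.

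**Figure D2:**
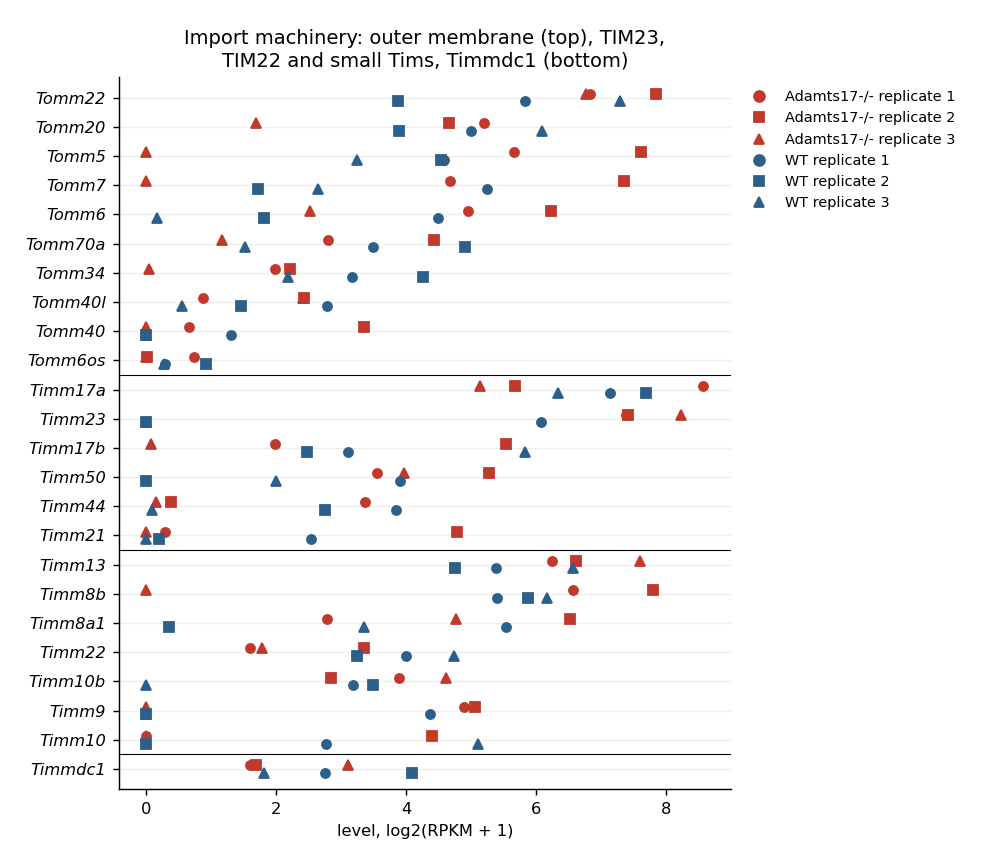
Level of the 24 import genes as log2(RPKM + 1), 1 row per gene, with Adamts17-/- libraries in red and WT libraries in blue; points at the same value cover each other. The groups overlap in every row but that of Timm23, where WT replicates 2 and 3 both lie at 0.

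In the ribosome, the most abundant large-subunit genes were found in every library. Mrpl52 was at 120, 117 and 228 RPKM in Adamts17-/- and 87.5, 52.5 and 278 RPKM in WT (0.44 ± 1.15). Mrpl33 was at 215, 258 and 90.8 RPKM in Adamts17-/- and 86.4, 19.1 and 466 RPKM in WT (0.88 ± 1.22). In both, WT replicate 3 was the highest library of all and WT replicate 2 the lowest. Without WT replicate 2 the log2 fold change was -0.08 for Mrpl52 and -0.23 for Mrpl33. Mrpl23, a protein near the exit of the nascent chain, was at 166, 89.3 and 45.8 RPKM in Adamts17-/- and 93.8, 72.2 and 94.3 RPKM in WT (0.03 ± 1.17, negative under the 3 alternative scalings and without Adamts17-/- replicate 1 or WT replicate 2). Mrpl51 was at 54.0, 60.2 and 87.8 RPKM in Adamts17-/- and 61.0, 41.4 and 148 RPKM in WT (-0.13 ± 1.20, or 0.38 without WT replicate 3 and 0.01 without Adamts17-/- replicate 1). For these genes the groups overlapped throughout.

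The groups did not overlap for Mrpl30 and Mrpl32. Mrpl30 was at 81.7, 293 and 104 RPKM in Adamts17-/- and 55.2, 40.5 and 79.4 RPKM in WT (1.26 ± 1.18). The gap was narrow, with 81.7 RPKM in the lowest Adamts17-/- library and 79.4 RPKM in the highest WT library, and without Adamts17-/- replicate 2 the log2 fold change was 0.71. Mrpl32, a protein that a protease of the inner membrane must cut before the ribosome can be assembled, was at 90.0, 114 and 85.7 RPKM in Adamts17-/- and 45.2, 76.2 and 0 RPKM in WT (2.66 ± 1.45). Without WT replicate 3, where it is listed at 0, its log2 fold change was 0.70.

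Among small-subunit genes, Mrps7, which binds the ribosomal RNA in the head of the subunit, was the most even. It was at 135, 73.8 and 45.0 RPKM in Adamts17-/- and 30.1, 35.6 and 58.3 RPKM in WT (0.93 ± 1.23). Mrps21 had the highest mean level but was at 413, 340 and 0 RPKM in Adamts17-/- and 102, 87.6 and 102 RPKM in WT (-0.91 ± 1.56). The 0 in Adamts17-/- replicate 3 set the sign, and without that library the log2 fold change was 1.94. Mrps15 was at 5.27, 122 and 11.8 RPKM in Adamts17-/- and 15.3, 51.6 and 176 RPKM in WT (-1.31 ± 1.41). Mrps28 was at 0, 52.2 and 189 RPKM in Adamts17-/- and 29.6, 17.6 and 167 RPKM in WT (-1.08 ± 1.57), and Mrps36 at 0, 137 and 32.8 RPKM in Adamts17-/- and 165, 332 and 14.7 RPKM in WT (-2.51 ± 1.55). Mrps36 had the lowest log2 fold change of all 94 tested members, with overlapping groups. Both rested on the 0 in Adamts17-/- replicate 1, without which the log2 fold change was 1.14 for Mrps28 and -0.48 for Mrps36. That of Mrps15 was -2.57 without Adamts17-/- replicate 2 and -3.43 without WT replicate 1 as well. The groups did not overlap for Mrps22, a protein found only in mitochondrial ribosomes, at 3.24, 31.7 and 37.4 RPKM in Adamts17-/- and 2.88, 0 and 0 RPKM in WT (3.48 ± 1.601). Mrps24, which lines the entry of the messenger RNA, was at 13.5, 65.8 and 45.2 RPKM in Adamts17-/- and 10.5, 0 and 2.32 RPKM in WT (3.40 ± 1.54). In both genes the gap was between replicates 1, with 3.24 against 2.88 RPKM for Mrps22. Mrps22 held 4.05 of 882809 read equivalents in Adamts17-/- replicate 1 and 10 of 1662637 in WT replicate 1. Mrps24 held 14 and 30.15 of the same totals. As a share of read equivalents, both genes were thus higher in WT replicate 1, and the groups overlapped. Library weights brought Mrps22 to 1.82 and Mrps24 to 1.69.

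**Figure D3:**
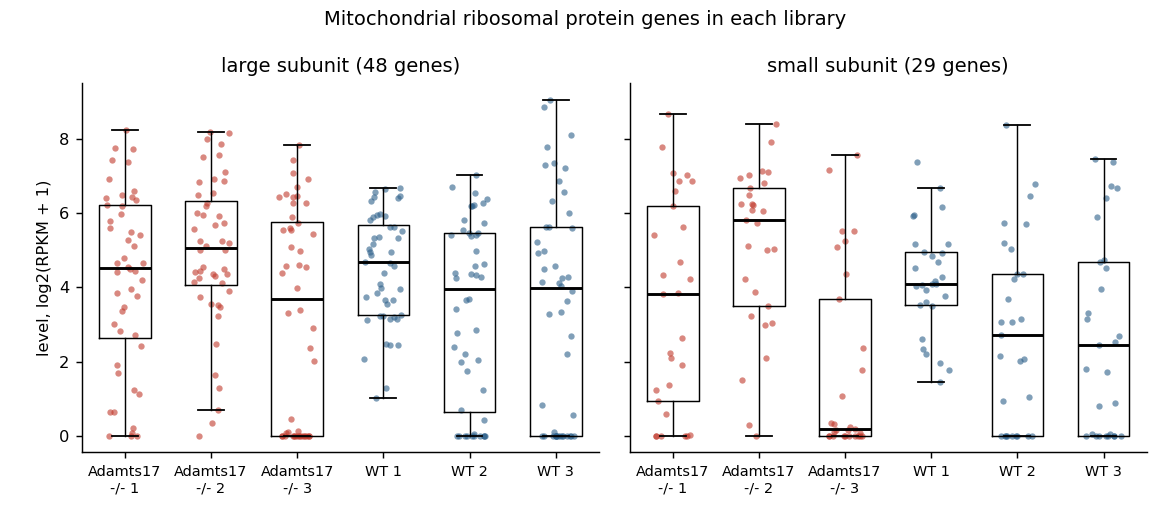
Level of the 48 large-subunit and 29 small-subunit genes, classed by name, as log2(RPKM + 1) in each library, 1 point per gene. Boxes span the quartiles, the thick line is the median and whiskers reach the last gene within 1.5 box lengths. Adamts17-/- replicate 2 has the highest medians, 5.06 and 5.82, and the small-subunit median of Adamts17-/- replicate 3 is 0.19.

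Over the class, the level of the ribosome followed single libraries. The mean log2(RPKM + 1) of the 77 genes was 3.95, 4.99 and 2.68 in Adamts17-/- and 4.39, 3.13 and 3.14 in WT. Adamts17-/- held both the highest library and the lowest. For the 24 import genes it was 3.63, 4.73 and 2.25 in Adamts17-/- and 4.01, 2.60 and 2.75 in WT, in the same order of extremes. The share of read equivalents gave another order. For the ribosome it was 0.458%, 0.390% and 0.290% in Adamts17-/- and 0.428%, 0.310% and 0.346% in WT. For import it was 0.140%, 0.132% and 0.0917% in Adamts17-/- and 0.146%, 0.0657% and 0.0917% in WT, with both extremes in WT. Summed levels of the ribosome genes were 3871, 5122 and 2288 RPKM in Adamts17-/- and 2463, 2115 and 3562 RPKM in WT. Of the 101 members, 36.6% had their highest value in Adamts17-/- replicate 2 and 5.94% in WT replicate 1, against 23.1% and 15.1% of all genes. Adamts17-/- replicate 2 also had the highest neutrophil, erythroid and proliferation sums, with 0 of 9, 0 of 10 and 0 of 11 of those markers listed at 0. In Adamts17-/- replicate 3 and in WT replicate 3 alike, 6 of 9 neutrophil markers were listed at 0, while the ribosome mean was 2.68 in the one and 3.14 in the other. The part of these cells in the level of the members was not tested. In bulk tissue of this kind, fewer cells of a type and less RNA per cell cannot be told apart.

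Many members were listed at 0 in 1 library and high in another, the pattern that also sets Timm23. In the ribosome, 8, 2 and 25 of 77 genes were listed at 0 in Adamts17-/- replicates 1, 2 and 3, and 0, 19 and 23 in WT replicates 1, 2 and 3. Among the 24 import genes these numbers were 1, 0 and 8 in Adamts17-/- and 0, 5 and 5 in WT. WT replicate 1 was the fullest library for the members and for all genes, of which 2.63% were at 0 there, against 14.2% to 21.2% in Adamts17-/- and 16.6% and 20.9% in the other WT libraries. For all members together the share ran from 0% to 32.7% of genes.

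Only 27 ribosome genes and 13 import genes had a value above 0 in all 6 libraries. Of 53 ribosome genes that reached 50 RPKM somewhere, 33 (62.3%) were at 0 elsewhere, and so were 4 of 11 such import genes (36.4%), Timm23, Timm8b, Tomm5 and Tomm7, against 36.5% of such genes in the table. Being at 0 in 2 or more libraries was as frequent among such members (11 of 64, 17.2%) as over the table (17.8%). Timm23 was listed at 0 in WT replicates 2 and 3 and in no other library, as were Mrpl28 and Mrps22. The pair of Adamts17-/- replicate 3 and WT replicate 3 was at 0 for 7 members, and Adamts17-/- replicate 3 alone for 14. The libraries with most members at 0 came from both genotypes.

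**Figure D4:**
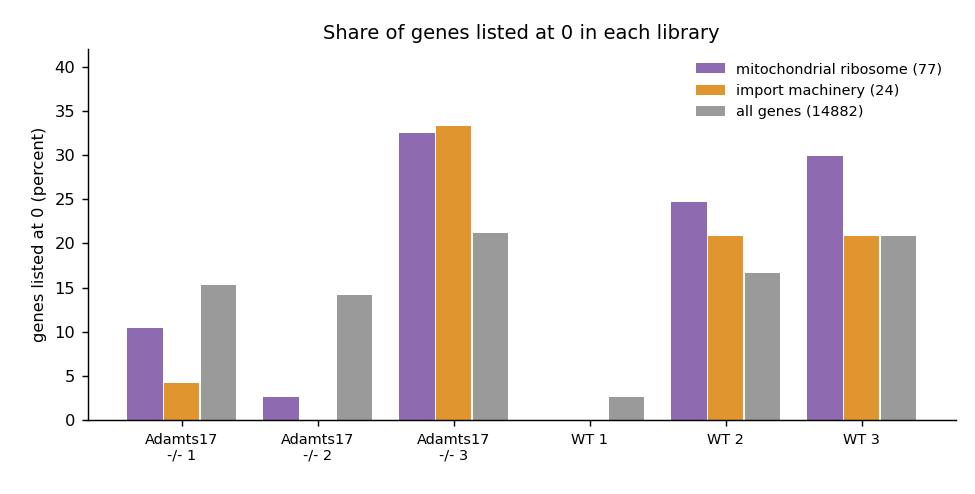
Percent of genes listed at 0 in each library, for the 77 ribosome genes, the 24 import genes and all 14882 genes. Adamts17-/- replicate 3 and WT replicates 2 and 3 have the highest shares in the ribosome, 32.5%, 24.7% and 29.9%, and in WT replicate 1 no member is at 0.

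The median SD of log2(RPKM + 1) over the 6 libraries was 2.18 for tested ribosome genes and 1.74 for tested import genes, against 1.57 for all tested genes. Among the named genes Mrpl23 (SD 0.60), Mrpl51 (0.64) and Mrps7 (0.77) varied least, and Timm23 varied most, with an SD of 3.82. On the same scale the median over genes of the mean level was 3.29 for members and 1.62 for all genes in the table.

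For the genotype comparison, 94 of the 101 members had at least 1 RPKM in at least 3 libraries and were tested with limma among 9128 genes. Mrpl3, Mrpl39, Mrps2, Mrps35, Timm21, Tomm40 and Tomm6os were not, and a gene under 1 RPKM throughout 1 group could pass only if it reached 1 RPKM in every library of the other. No member passed at a limma adjusted p under 0.05, nor did any other gene (0% of tested genes higher and 0% lower, with 0.999 as the lowest adjusted p by limma). Without adjustment 229 genes (2.51%) had a limma p under 0.05, 1.14% of tested genes on the higher side, which held 3 members (Timm23, Mrps22 and Mrps24). SEs of these log2 fold changes had a median of 1.56 over members and 1.48 over all tested genes. Of 73 tested ribosome genes 47 had a positive log2 fold change and 26 a negative one, with a median of 0.44, and of 21 import genes 11 were positive and 10 negative, with a median of 0.30. Over all tested genes 52.8% were positive, with a median of 0.08. Large-subunit genes had a median of 0.57 (31 of 46 positive) and small-subunit genes 0.24 (16 of 27 positive). In RPKM, groups did not overlap for 5 tested members, Timm23, Mrpl30, Mrpl32, Mrps22 and Mrps24, all higher in Adamts17-/-. Over all tested genes this held for 3.09% on that side and 3.54% on the lower side, where there were 0 members (6.63% on either side). As a share of read equivalents, the groups overlapped for Mrps22 and Mrps24.

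The ribosome median rested on single libraries. Without Adamts17-/- replicate 2 it was -0.07, and without WT replicate 2 it was -0.08, while the median of all genes was 0.02 and 0.09 in those fits. Without Adamts17-/- replicate 3 it was 0.90, and with library weights -0.09. The ribosome median stayed positive under the 3 alternative scalings (0.15 to 0.25), but the import median turned to -0.07 with quantile normalization and to -0.01 with upper-quartile scaling. With 1 library left out the import median lay between -0.47 and 0.85, with a pseudocount of 0.1 it was -0.60, and with library weights it was -0.65 (-0.56 relative to all genes). The all-gene median itself moved by -0.19 with upper-quartile scaling, by -0.18 when the top 10 genes were left out of library totals and by -0.17 with library weights. Relative to it the ribosome median was 0.27, 0.29 and -0.0035 in those fits, against 0.36 as reported.

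**Figure D5:**
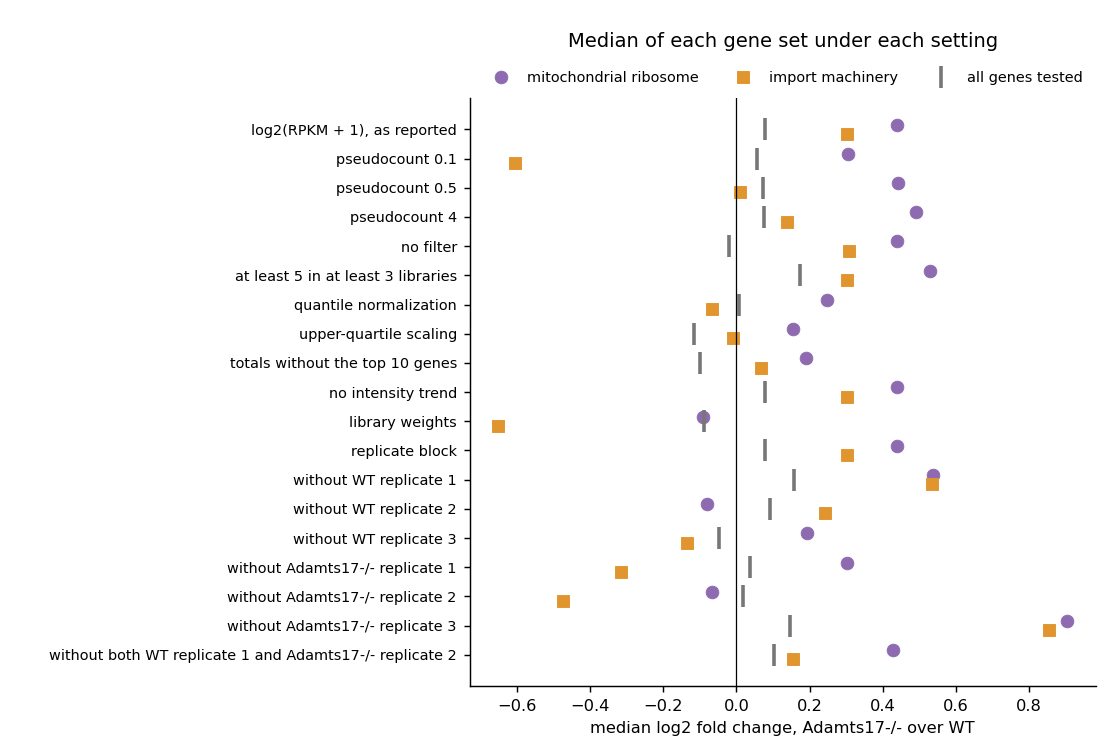
Median log2 fold change of Adamts17-/- over WT for tested ribosome genes (circles), import genes (squares) and all tested genes (ticks) under each setting, 1 setting per row. The ribosome median is 0.44 as reported and falls below 0 without WT replicate 2, without Adamts17-/- replicate 2 and with library weights.

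Other genes of the same processes were read from lists that the naming rule did not cover. Of 6 further ribosome proteins, 4 were positive and 2 negative with 0 passing, from Aurkaip1 (3.35 ± 1.53) to Ptcd3 (-1.69 ± 1.62). Aurkaip1, a small-subunit protein, was at 89.4, 54.4 and 23.3 RPKM in Adamts17-/- and 36.2, 2.11 and 0 RPKM in WT, again with the low values in WT replicates 2 and 3. Of 23 tested genes that sort, cut or fold imported proteins, 17 were positive and 6 negative with 0 passing. Hspd1, the folding chaperone of the matrix, had the highest log2 fold change of that list (3.89 ± 1.59), at 53.5, 71.0 and 12.9 RPKM in Adamts17-/- and 13.9, 0.137 and 0 RPKM in WT. Dnajc15, a co-chaperone at the inner membrane, had the lowest (-0.65 ± 1.496). Hspd1 overlapped between groups by WT replicate 1 alone.

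Translation factors and ribosome assembly genes were low, with 11 of 26 tested, 3 positive and 8 negative and 0 passing, from Tfb1m (1.67 ± 1.19), a methyltransferase of the ribosomal RNA, to Mterf4 (-1.42 ± 1.55), an assembly factor. Of 8 tested regulators of mitochondrial biogenesis 5 were positive and 3 negative with 0 passing, from Ppargc1b (1.55 ± 1.45), a co-activator, to Tfam (-1.23 ± 1.55), the packaging protein of mitochondrial DNA. Median log2 fold changes were 0.99, 0.32, -0.09 and 0.40 for the further ribosome, sorting, translation and regulator lists.

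Several members share their locus with another gene. Of the 101, 15 overlap another row of the table, 11 of them a row on the opposite strand (such as Timm8b with AU019823 and Mrpl48 with Rab6a) and 4 a row on the same strand (Mrpl53, Mrps6, Mrps23 and Tomm7), and values of these genes may include reads of the other. Of 474 values of members above 1 read equivalent, 61.2% were whole within 0.01, and the rest hold fractions of reads. Among the named genes, Mrpl51, Timm8a1 and Timm22 had no whole value, while those of Timm23, Timm17a, Mrpl33, Mrps28 and Mrps36 above 1 read equivalent were all whole.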

How the data were processed

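RNA sequencing values of 6 libraries were analysed. The authors deposited 1 table with a value per gene and library, which no source used here names a unit for. The deposited values were read as RPKM, since value times transcript length fell on multiples and simple fractions of 1 step per library, and the table's name says that they were scaled by trimmed means of M-values. The sources used here name no aligner, counter, strand setting or genome build. Of read equivalents from 1 to 20, only 21.6% to 33.6% per library came out whole (within 0.01), so no count model was fitted and no interval from depth is given. Sample descriptions tied columns to samples, and titles gave the groups. Equal values above 0 were not found between any libraries.

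Values were analysed as log2(RPKM + 1), which understates changes of low genes, with limma 3.58.1 in R 4.3.3 (intensity trend, two-sided, Benjamini-Hochberg over 9128 genes with at least 1 RPKM in at least 3 libraries), checked on simulated data. Python 3.11.15, numpy 2.4.6, pandas 2.3.3 and matplotlib 3.10.9 made the tables and figures. Coordinates are the table's: 46 of 101 members had the same bounds in RefSeq on GRCm38.p6. Genes given in full were Timm23, the TIM23 channel and motor, the 4 highest Tomm and the 4 highest other Timm genes, the 5 highest genes of each ribosomal subunit, up to 3 genes per subunit and direction without overlap, and the extremes of each further list. Older symbols were matched through RefSeq synonyms. The members and lists were chosen with earlier results of these data known. Alternatives changed the pseudocount, the filter, the scaling or the variance model, weighted libraries, blocked on replicate number or left libraries out.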

Additional observations from a re-analysis of the deposited data

How the results depend on the processing

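Of 18 alternatives, 16 called 0 genes over the table. Library weights called 1, and with 1 library left out the count ran from 0 to 5, with 5 without Adamts17-/- replicate 3; no alternative called a member. The medians of both classes moved by less than the spread between libraries in each alternative, but changed sign as described. That spread is the SD within groups of the median log2(RPKM + 1) of the class. It is a wide limit, with ribosome medians of 4.35, 5.20 and 1.78 in Adamts17-/- replicates 1, 2 and 3. A smaller move therefore does not show that the medians were stable. Of 467 values of the 26 named members that were tested, 26 had the opposite sign, in 12 members. The other 14, Timm23 included, kept theirs. A replicate block on the numbers in the titles gave 0 called genes, and the ribosome and import medians were 0.44 and 0.30. Deviations from the group means correlated at -0.0075, -0.35 and -0.10 between libraries of the same number, so the numbers were not taken as pairs. With a value of at least 5 RPKM in at least 3 libraries, 65 ribosome and 19 import genes remained. Values listed at 0 in libraries of this depth cannot be told from low expression.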
